A study of Homo sapiens with 2 samples.

Results

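Between GORASP2 and ZDBF2 on the long arm of chromosome 2, most of the well-measured neighbouring genes were higher in SW620 cells expressing CDR1AS than in SW620 cells carrying a control lentivirus. The genes described here are 55 named members of that stretch, listed in chromosomal order, out of 18638 genes with a symbol on the array. They were proposed with the ratios of these same 2 arrays in view, so their values are a description, and the choice of members fixes part of what follows. Probes were found by gene symbol. Probes for 53 members were present, and 51 members were above background on at least 1 array. PDE1A and TYW5 were not analysed here for want of a probe under those names, and CALCRL and STAT4 were not above background on either array.

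SW620 is an established colon carcinoma line from a lymph node metastasis, grown here in DMEM with serum. Total RNA of the CDR1AS-expressing cells (1 array) was set against total RNA of the control cells (1 array), both labelled with Cy5 and read in 1 colour. CDR1AS is a circular RNA with many sites for the microRNA miR-7. The labels do not say whether either population was a clone or a pool, and the level of CDR1AS itself was not analysed here. Each group is a single array, so differences have no replicate check and no test was made; precision is limited by that number of arrays. In bulk RNA, fewer cells of a type and less RNA per cell cannot be told apart.

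Genes that lie next to each other on a chromosome usually have unrelated functions, but they share their DNA: a gain or loss of a chromosome segment alters the copy number of every gene in it, and broad chromatin states can also span neighbours. Closely spaced genes on opposite strands often share 1 promoter region and are then transcribed away from each other. The long arm of chromosome 2 in this stretch holds genes for splicing, ribosome assembly, chromatin, ion and lipid metabolism and intracellular transport. DNA copy number was not analysed here.

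The colon carcinoma label was set against marker genes. Of the colon epithelial markers with a probe, 10 of 10 were above background on the CDR1AS array and 9 on the control array, led by KRT18, a keratin of simple epithelia, with an intensity of 47565 on the CDR1AS array against 56040.0 on the control array. Of 7 fibroblast markers 4 were above background on each array, of 6 endothelial markers 5 on the CDR1AS array and 3 on the control array, and of 6 probed leukocyte markers 3 on each. The summed intensity over the blank level was 372 on the CDR1AS array against 385 on the control array for fibroblast markers, 335 against 264 for endothelial markers and 71.9 against 80.0 for leukocyte markers. For the colon epithelial markers it was 67186 against 71659, most of it from KRT18. Single markers differed in direction: EPCAM read 6334 on the CDR1AS array against 8538 on the control array, and KRT19 12239 against 6186. The collagen genes COL1A1, COL1A2 and COL3A1 and the leukocyte gene PTPRC were not above background on either array. The part of other cell types in the values below was not tested.

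Intensities below are the deposited spot brightness in arbitrary units. The background limit, 2 SD above the mean of the blank spots, was 72.1 on the CDR1AS array and 69.1 on the control array, and the median gene probe read 109 and 103. Log2 ratios are CDR1AS minus control after background correction and quantile normalization, with an offset of 50 that compresses the ratios of dim genes. A gene is called bright here where it read at least 2 times the background limit on both arrays.

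Of the 51 measured members, 48 had a ratio above 0, where 48.6% of all 16685 measured genes did. The 3 below 0 were NAB1, MFSD6 and SLC25A12. The median log2 ratio was 0.40 over the members (SD over genes 0.31, range -0.28 to 1.35) and 0.00 over all measured genes (SD 0.29). At least 1.5-fold higher were 13 members, against a share of 2.63% over all genes, and 1 member, ITPRID2, was at least 2-fold higher, against 0.755%. At least 1.5-fold lower were 0 members, where 2.24% of all genes were. Since these values chose the members, the counts carry no weight of their own. They also rest on leaving out the local background: with it subtracted, 31 of the 51 were above 0 and the median was 0.14. The share of all measured genes above 0 was not taken on that scale, here or for the role groups below. The single member above background on the CDR1AS array alone, GULP1, did not move the median, which was 0.40 with that gene at its bound.

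**Figure D1:**
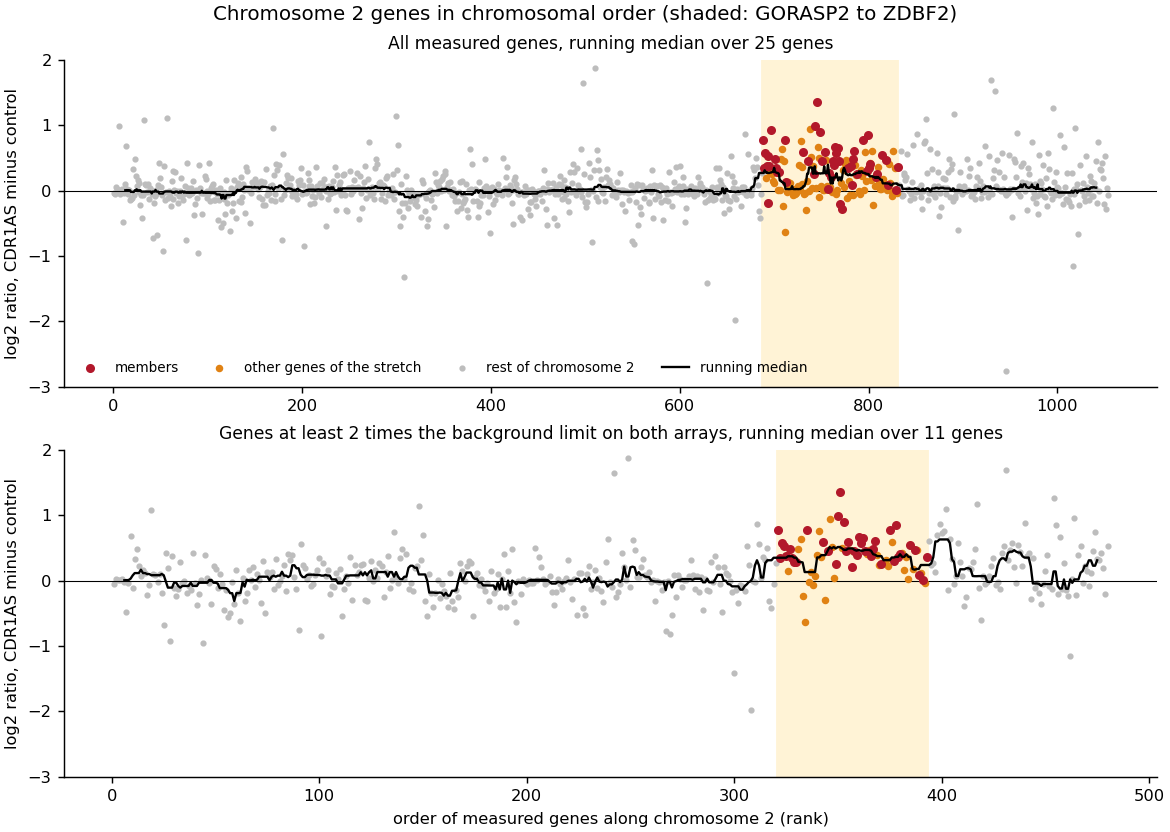
Log2 ratio (CDR1AS minus control) of measured chromosome 2 genes against their rank along the chromosome, for all measured genes (top) and bright genes (bottom). Red points are members, orange points other genes between GORASP2 and ZDBF2 (shaded), grey points the rest of the chromosome, and the black line is the running median, which reaches 0.40 inside the shaded stretch in the top panel and 0.52 in the bottom panel.

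The ratio depended on how bright a gene was. All 39 bright members were above 0, where 48.5% of all bright genes were, and their median was 0.46. At least 1.5-fold higher were 12 of them, against 3.81% of all bright genes. At least 2-fold higher was 1 of them, against 1.01% of all bright genes, and 0 were at least 1.5-fold lower, against 3.7%. The 12 measured members that were not bright had a median of 0.17, with 9 above 0. Across the 51 members, ratio and mean log2 level correlated with Pearson's r = 0.50 and Spearman's rho = 0.54, a description over genes that share both arrays and the same offset. In the authors' deposited table, which has no offset, the median member with both values was 1.52-fold higher and the middle of the members lay between 1.38 and 1.71-fold (50 genes). On that scale bright members had a median of 1.53-fold and the other members 1.41-fold, so the gap between bright and dim members was narrower there. The table placed 27 of the 50 members at least 1.5-fold higher, against 9.26% of all genes with both values.

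**Figure D2:**
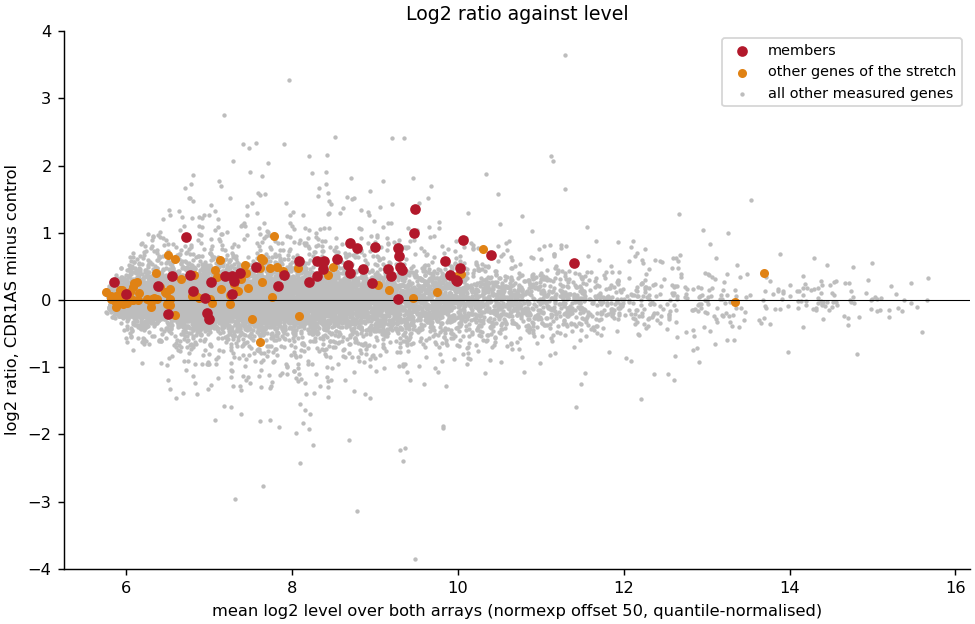
Log2 ratio (CDR1AS minus control) against the mean log2 level over both arrays, 1 point per measured gene. Members are red, other genes of the stretch orange and all other measured genes grey; the members lie above 0 except for 3 genes at low levels.

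The members' median was also taken block by block along the stretch. In 5 consecutive blocks of 11 listed members, the median log2 ratio was 0.37 from GORASP2 to SP3, 0.52 from OLA1 to NUP35, 0.46 from ZC3H15 to INPP1, 0.35 from MFSD6 to SPATS2L and 0.36 from BZW1 to ZDBF2. With the local background subtracted the 5 medians were 0.27, 0.16, 0.09, -0.02 and 0.33 in the same order. The second block held ITPRID2, UBE2E3, NCKAP1 and CHN1, the leading members by ratio apart from DLX1 and CLK1. In the fourth block lay NAB1 and MFSD6. The spots of the measured members were spread over 22 of the 24 print blocks of the array, with at most 6 in 1 block.

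Closely spaced pairs showed similar ratios where both genes were members, as long as the local background was left out. In the RefSeq annotation 3 such pairs start within 1000 bases of each other on opposite strands. ORMDL1, a brake on sphingolipid synthesis, had a log2 ratio of 0.67 and its neighbour PMS1, a mismatch repair protein, 0.57, with starts 111 bases apart. PPIL3, a cyclophilin of the spliceosome, had 0.36 and NIF3L1 0.41, with starts 250 bases apart. TRAK2, which links mitochondria to kinesin, had 0.21 and STRADB 0.26, with starts 282 bases apart. The ratios within these pairs differed by 0.05 to 0.09, but with the local background subtracted by 0.40 to 1.64, where PPIL3 (1.19) and NIF3L1 (-0.45) had opposite signs. In the 5 pairs of a member with a measured gene outside the list, the difference ran from 0.33 to 0.48. Those were AGPS (0.59) with LOC100130691 (0.11), METTL8 (0.57) with DCAF17 (0.20), PRKRA (0.46) with PJVK (0.00), WDR12 (0.47) with CARF (0.01), and EEF1B2 (0.01) with NDUFS1 (0.34). None of these 5 unlisted genes was bright, and the offset compresses the ratios of dim genes. CARF read 74.4 on the CDR1AS array against 70.1 on the control array, and PJVK 78.0 against 73.8. In the listed pairs only TRAK2 and STRADB were not bright. Because the list was made from these ratios, the closer match of listed pairs is also not independent of the choice.

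The promoter windows of the member pairs with the closest starts, of the members with the highest ratio and of the member with the lowest ratio are shown so that their letters can be compared. Each is the RefSeq window of GRCh38.p14 from 250 bases before to 50 bases after a start, 5′ to 3′ on the gene's own strand, which is the plus strand for all 5. Capitals mark matches to any of the motifs searched on both strands: the GC box GGGCGG, which SP1 and SP3 bind, the CCAAT box CCAAT, the ETS core CCGGAA, the cAMP response element TGACGTCA, which ATF2 binds and the TATA box TATAAA. The palindrome bound by NRF1 was also searched and had no match in these 5 windows. The PMS1 window also contains the nearest start of ORMDL1, and the NIF3L1 window begins at that of PPIL3.
PMS1 at chr2:189784200-189784499: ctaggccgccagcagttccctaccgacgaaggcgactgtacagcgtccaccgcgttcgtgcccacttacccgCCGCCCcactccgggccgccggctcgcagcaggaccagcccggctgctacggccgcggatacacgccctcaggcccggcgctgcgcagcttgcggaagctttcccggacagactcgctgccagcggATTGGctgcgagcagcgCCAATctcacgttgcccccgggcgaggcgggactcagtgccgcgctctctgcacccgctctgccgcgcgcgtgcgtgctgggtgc
NIF3L1 at chr2:200889077-200889376: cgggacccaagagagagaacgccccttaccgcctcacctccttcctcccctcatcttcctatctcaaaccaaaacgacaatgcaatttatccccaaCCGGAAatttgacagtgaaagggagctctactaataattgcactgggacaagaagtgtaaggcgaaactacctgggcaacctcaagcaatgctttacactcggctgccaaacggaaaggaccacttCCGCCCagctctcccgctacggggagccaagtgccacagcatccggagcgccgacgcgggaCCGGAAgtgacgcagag
ITPRID2 at chr2:181891480-181891779: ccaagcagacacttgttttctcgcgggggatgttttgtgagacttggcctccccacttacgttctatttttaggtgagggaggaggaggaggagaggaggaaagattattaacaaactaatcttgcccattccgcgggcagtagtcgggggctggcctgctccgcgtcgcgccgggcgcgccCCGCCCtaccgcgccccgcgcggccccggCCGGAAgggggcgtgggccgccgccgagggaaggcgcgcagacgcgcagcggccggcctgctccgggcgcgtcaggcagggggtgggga
UBE2E3 at chr2:180980110-180980409: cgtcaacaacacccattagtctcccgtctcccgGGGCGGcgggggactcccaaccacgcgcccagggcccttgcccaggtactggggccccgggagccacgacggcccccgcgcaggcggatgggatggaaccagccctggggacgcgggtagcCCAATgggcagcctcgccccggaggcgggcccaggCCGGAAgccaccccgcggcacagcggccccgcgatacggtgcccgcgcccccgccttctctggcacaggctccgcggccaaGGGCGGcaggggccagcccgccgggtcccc
NAB1 at chr2:190648645-190648944: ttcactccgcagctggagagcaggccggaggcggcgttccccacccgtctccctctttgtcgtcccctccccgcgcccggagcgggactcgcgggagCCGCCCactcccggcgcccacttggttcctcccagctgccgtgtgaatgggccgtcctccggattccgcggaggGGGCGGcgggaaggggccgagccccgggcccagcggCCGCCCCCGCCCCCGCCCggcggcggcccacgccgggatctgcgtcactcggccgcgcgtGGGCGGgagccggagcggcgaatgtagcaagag

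The share of G and C ran from 55.3% in NIF3L1 to 77% in UBE2E3 and NAB1, where the median was 63.3% over the members' windows and 58.3% over all promoters. GC boxes numbered 6 in the NAB1 window, 2 in that of UBE2E3 and 1 each in those of PMS1, NIF3L1 and ITPRID2. Whether their number went with the ratio over the members was not tested. Over the 52 members with a window in the table, 59.6% held a GC box, against 59.8% of 82 other measured genes of the stretch and 44.6% of all 27305 promoters. A CCAAT box was found in 40.4% of the members' windows, against 39.0% and 35.7%, and an ETS core in 32.7%, against 19.5% and 17.6%. The cAMP response element was present in 1 window of the members (1.92%, against 1.98% of all promoters). The TATA box was present in 6 (11.5%, against 12.0%), and the NRF1 palindrome in 1 (1.92%, against 1.36%). The members and their unlisted neighbours thus had nearly the same share of GC boxes and of CCAAT boxes. These matches are letters in a window, not sites shown to be bound.

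**Figure D3:**
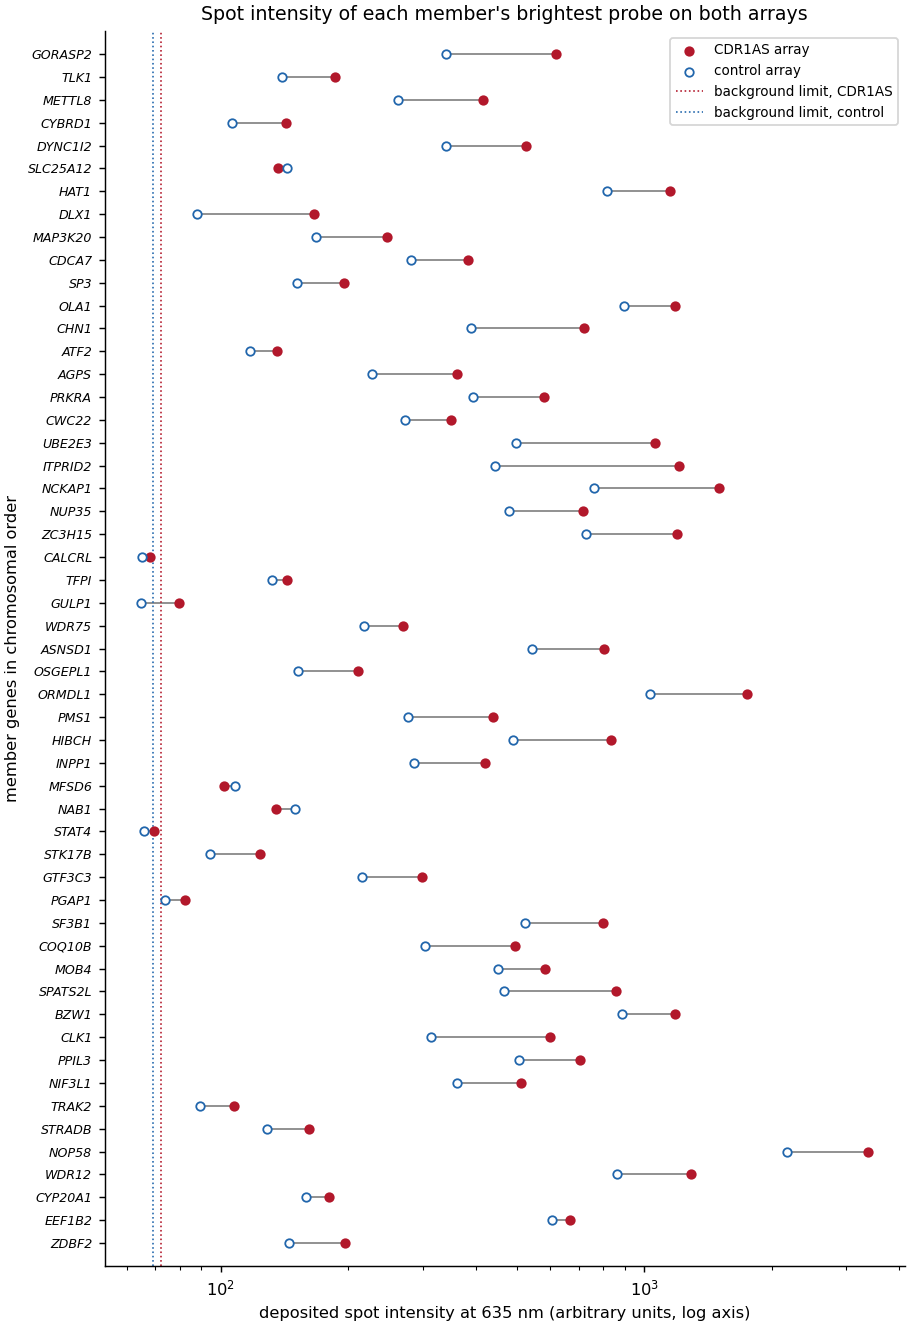
Deposited spot intensity (log axis, arbitrary units) of the brightest probe of each of the 53 members with a probe, in chromosomal order from top to bottom; filled red points are the CDR1AS array, open blue points the control array, and dotted lines the background limits. The red point lies right of the blue one except for SLC25A12, MFSD6 and NAB1, before any correction for the slightly brighter CDR1AS array.

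In a mixed role group, of genes that mostly act at the cytoskeleton, in transport, in protein turnover or in secretion, 9 of 10 measured genes were above 0 and 5 were at least 1.5-fold higher, with a median of 0.56. Above 0 were 7 of the 10 with the local background subtracted, where their median was 0.13. UBE2E3, a ubiquitin-conjugating enzyme, read 1060.1 on the CDR1AS array against 498 on the control array (log2 ratio 0.99). NCKAP1, a subunit of the WAVE complex that drives branched actin assembly, read 1499.5 against 762 (0.90). SPATS2L, an RNA-binding protein found in stress granules, read 859 against 466 (0.78). The first listed gene, GORASP2, encodes a protein that stacks Golgi membranes and read 617 on the CDR1AS array against 339.5 on the control array (0.77). ZC3H15, a zinc finger partner of a translation GTPase, read 1193 against 730.3 (0.59), and its ratio was below 0 after subtraction of the local background (-0.43). The dynein intermediate chain gene DYNC1I2 read 526 against 341 (0.53). These 6 genes were all bright on both arrays. SPATS2L and ZC3H15 were placed in this group although their described roles lie with RNA and translation. With the local background subtracted, NCKAP1 had a ratio of 0.16 and SPATS2L 0.12. TRAK2 was dimmer, at 107 against 89.2 (0.21). The tissue factor pathway inhibitor gene TFPI, which restrains clotting, read 143 against 132 (0.03). MFSD6, a membrane transporter gene, was the exception at 102 on the CDR1AS array against 108 on the control array (-0.20). GULP1, an adaptor in the uptake of dying cells, was above background on the CDR1AS array alone, at 79.8 against 64.8, and was at least 1.11-fold higher.

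The signalling members gave the highest single ratio, and all 8 that were measured were above 0, with a median of 0.47. Only 4 of the 8 were above 0 with the local background subtracted, where their median was 0.02. ITPRID2, a protein that anchors inositol trisphosphate receptors to actin, read 1208 on the CDR1AS array against 443 on the control array, a log2 ratio of 1.35. Its other probe read 257 against 139 (0.84), so both probes were high on the CDR1AS array. After subtraction of the local background the brighter probe had a ratio of -0.05; the local background beside that spot read 1033 on the CDR1AS array against 348 on the control array. CHN1, a Rac-inactivating protein of the chimaerin family, read 719 against 391 (0.78), and its other probe gave the same ratio of 0.78. ORMDL1 was the brightest gene of this group, at 1749.6 against 1035 (0.67), and was placed here although its described role lies in sphingolipid synthesis. MAP3K20, a stress kinase that senses stalled ribosomes, read 247 against 168 (0.49), and the inositol phosphatase gene INPP1 read 419.7 against 286 (0.46). The remaining 3 were lower on this scale but still above 0. The apoptosis-related kinase gene STK17B read 124 on the CDR1AS array against 94.2 on the control array (0.35), STRADB, a pseudokinase that activates the tumour suppressor kinase STK11, 161 against 128 (0.26), and MOB4, a subunit of a striatin phosphatase complex, 584 against 451 (0.26). CALCRL, the receptor for the peptides CGRP and adrenomedullin, read 67.9 against 65.2, under the background limit of each array.

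Splicing members were all 4 above 0, with a median of 0.42. Only 2 of the 4 were above 0 with the local background subtracted, where their median was 0.49. CLK1, a kinase that phosphorylates SR splicing proteins, read 598 on the CDR1AS array against 313 on the control array (0.85). SF3B1, the branch point recognition subunit of the U2 particle, read 798 against 524 (0.49). PPIL3 read 707 against 507 (0.36). CLK1 alone among them was past 1.5-fold. CWC22, which loads the exon junction complex during splicing, read 350.4 against 272 (0.26), and its other probe gave 0.66, a wider gap between probes than in CHN1.

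Members for ribosome assembly and translation were bright: 7 of 7 were above 0, with a median of 0.30, and 0 were past 1.5-fold, a count that leaves out ZC3H15. With the local background subtracted, 4 of the 7 were above 0. NOP58, a core protein of the box C/D particles that methylate ribosomal RNA, was the brightest of all members, at 3381 on the CDR1AS array against 2172 on the control array (0.55). WDR12, which acts in maturation of the large ribosomal subunit, read 1287 against 861 (0.47), and PRKRA, an activator of the kinase PKR and a partner of Dicer, read 579 against 394 (0.46). BZW1, a regulator of start codon choice, read 1183 against 885 (0.30), OLA1, an ATPase of the Obg family, 1184 against 894 (0.28) and WDR75, which acts in ribosomal RNA transcription and processing, 269 against 218 (0.20). EEF1B2, the exchange factor subunit of the elongation factor complex, was the exception at 667 on the CDR1AS array against 606 on the control array (0.01), the lowest ratio of any bright member. The annotation names 8 pseudogene copies of EEF1B2, more than of any other member, and whether its probe also detects them was not tested.

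Both measured tRNA-modifying enzymes were higher, METTL8 also with the local background subtracted (0.86) and OSGEPL1 not (-0.03). METTL8, which methylates mitochondrial tRNAs, read 416 on the CDR1AS array against 262 on the control array (0.57), and OSGEPL1, which makes a threonyl-carbamoyl base in mitochondrial tRNAs, read 211 against 152 (0.40), with 0.42 for its other probe. TYW5, an enzyme of wybutosine synthesis, was not analysed here. The chromatin, repair and nuclear pore members were also all above 0, with a median of 0.42 and a narrow spread (SD over 4 genes 0.10). PMS1 read 438 on the CDR1AS array against 276 on the control array (0.57), the nuclear pore gene NUP35 716 against 480.0 (0.46) and HAT1, which acetylates newly made histone H4, 1150.3 against 818 (0.37). TLK1, a kinase of the histone chaperone ASF1, read 186 against 139 (0.35). The spread was wider with the local background subtracted, where 3 of these 4 genes were above 0. PMS1 was then at 0.78, TLK1 at 0.27, NUP35 at 0.17 and HAT1 at -0.42.

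Transcription factors and coregulators were the dimmest role group by median level, with 6 of 7 measured genes above 0 and a median of 0.35. The count was the same with the local background subtracted, where their median was 0.20. DLX1, a homeobox gene of forebrain and craniofacial development, read 166 on the CDR1AS array against 88.0 on the control array (0.94). In the authors' deposited table it was 4.18-fold higher, at 44.3 against 10.6, the widest table fold of any member. With the local background subtracted its log2 ratio was 0.20. GTF3C3, a subunit of the TFIIIC factor of RNA polymerase III, read 299 against 216 (0.38), the imprinted gene ZDBF2, last in the list, 196 against 145 (0.36), and CDCA7, a chromatin factor of dividing cells, 384 against 281 (0.35). SP3, a factor that binds GC boxes, read 195 against 151 (0.29) and ATF2, a factor of the cAMP response element family, 136 against 117 (0.13). NAB1, a corepressor of the EGR factors, had the lowest ratio of all members, at 135 on the CDR1AS array against 149.9 on the control array (-0.28). The last of the group, STAT4, a cytokine-activated factor of lymphocytes, read 69.6 against 65.8 and was under the background limit on both arrays.

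Among the 9 members of mitochondrial, metabolic and lipid function 8 were above 0, with a median of 0.41, and 3 were at least 1.5-fold higher. Only 4 of the 9 were above 0 with the local background subtracted, where their median was -0.01. HIBCH, an enzyme of valine breakdown, read 835 on the CDR1AS array against 489 on the control array (0.66). COQ10B, a coenzyme Q-binding protein of the mitochondrion, read 495 against 304 (0.61), and was lower after subtraction of the local background (-0.51). AGPS, the enzyme that forms the ether bond of plasmalogens, read 361 against 227 (0.59), while its other probe gave 0.19. ASNSD1, a gene with an asparagine synthetase domain, read 804 against 542 (0.45) and NIF3L1 513 against 361 (0.41). CYBRD1, the ferric reductase of the intestinal brush border, read 142 on the CDR1AS array against 106 on the control array (0.37). Close to 0 were CYP20A1, an orphan cytochrome P450, at 180.2 against 159 (0.09, other probe 0.24), and PGAP1, which trims GPI anchors, at 82.2 against 73.8 (0.09). SLC25A12, the mitochondrial aspartate-glutamate carrier, read 136 on the CDR1AS array against 143 on the control array (-0.19).

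The 93 other measured genes between GORASP2 and ZDBF2 had a lower median than the members, 0.07. With the local background subtracted their median was 0.003, against 0.14 for the members and -0.02 for chromosome 2 outside the stretch. The counts that follow leave the local background out. Above 0 were 70 of them (75.3%, against 48.6% of all measured genes). At least 1.5-fold higher were 7 (7.53%, against 2.63%) and at least 2-fold higher 0, against 0.755%. At least 1.5-fold lower was 1, against 2.24%. Most of them were dim: 59 were not bright and had a median of 0.03, whereas the 34 bright ones had a median of 0.29, with 28 above 0. The 5 highest of those above background on both arrays were FKBP7 (0.95), the splicing factor gene HNRNPA3 (0.77), PPP1R1C (0.68), SCRN3 (0.63) and the semaphorin receptor gene NRP2 (0.61). The 5 lowest were the acetylcholine receptor gene CHRNA1 (-0.63), RBM45 (-0.29), GPR155 (-0.23), the caspase inhibitor gene CFLAR (-0.22) and DNAH7 (-0.10). Members and others together gave 73 bright genes, 67 of them above 0 (91.8%), where 48.5% of all bright genes were. The 39 members among them, all above 0, were chosen with these values known. The pooled counts and the running medians below are therefore partly fixed by that choice. Of the 34 unlisted bright genes alone, 82.4% were above 0. Of these 73, 16 were at least 1.5-fold higher and 1 at least 1.5-fold lower, against 3.81% and 3.7% of all bright genes. The running median over 11 bright genes stayed between 0.13 and 0.52 throughout. Over all measured genes, the running median over 25 genes was as low as 0.02 inside the stretch, centred on LNPK beside the dim HOXD genes, and reached 0.40 centred on TFPI.

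Neither end of the list was a sharp edge. The 10 nearest measured genes before GORASP2 had a median of 0.23, with 7 above 0: the RNA-binding protein gene SSB (0.51), UBR3 (0.37), PPIG (0.36), PHOSPHO2 (0.31), GAD1 (0.27), PHOSPHO2-KLHL23 (0.19) and MYO3B (0.09) were above 0, and EIF2S2P4 (-0.05), HMGB1P4 (-0.31) and SP5 (-0.42) below. After ZDBF2 the 10 nearest had a median of 0.18, with FASTKD2 (0.60), PLEKHM3 (0.56), METTL21A (0.26), CREB1 (0.24), FZD5 (0.21), CCNYL1 (0.16), ADAM23 (0.08) and MDH1B (0.01) above 0, and KLF7 (-0.07) and CPO (-0.09) below. Just inside the ends stood GORASP2 at 0.77 and ZDBF2 at 0.36. Among bright genes alone, the 10 nearest after ZDBF2 had a median of 0.65, above the 0.46 of the bright members, and included RPE (0.86), ATIC (0.76) and FN1 (1.09). The 10 nearest bright genes before GORASP2 had a median of 0.29. Farther out the sides differed: the 50 nearest bright genes had a median of 0.28 after ZDBF2 and of 0.01 before GORASP2. All 87 bright genes after ZDBF2 had a median of 0.23, and all 320 before GORASP2 had 0.01.

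Other chromosomes held windows of similar height. With 25 measured genes per window the highest running median elsewhere was 0.31, on chromosome 16 (centred on ATP2C2), followed by 0.30 on chromosome 4 (MAN2B2), both under the 0.40 of the stretch. With 11 bright genes per window, chromosome 4 reached 0.76, centred on MRFAP1, above the 0.52 found inside the stretch and above the 0.63 found on chromosome 2 beyond ZDBF2, centred on RPE. The median over all 15632 measured genes on other chromosomes was -0.01.

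The proteins encoded by many members work in complexes or have paralogs whose genes lie outside the stretch, and the ratios of those genes centred near 0. Of 118 listed partners and paralogs, 112 were measured, none of them within the stretch, with a median of 0.02. Some lay elsewhere on chromosome 2. Before GORASP2 these were SF3B6 (0.42), EIF2AK2 (0.32), MDH1 (0.06), WDR43 (0.06), GTF3C2 (0.05) and STRN (-0.05). After ZDBF2 they were STK25 (0.33) and CAB39 (0.22). Above 0 were 66 of the 112 (58.9%, against 48.6% of all measured genes). At least 1.5-fold higher was 1 of them (0.893%, against 2.63% of all genes). At least 1.5-fold lower was also 1, against 2.24%, GNPAT (-0.61), which acts with AGPS in ether lipid synthesis. The higher one was JUN, a dimer partner of ATF2, at 703 on the CDR1AS array against 183 on the control array (1.90). For 34 members with measured partners, the member's own ratio was above the median of its partners in 31 and below it in 3, NAB1, EEF1B2 and SLC25A12, with a median difference of 0.37. The 9 partners of SF3B1 in the U2 particle had a median of 0.11, from PHF5A (-0.30) to SF3B6 (0.42), against 0.49 for SF3B1. With the local background subtracted this contrast turned round, with SF3B1 at -0.55 and its partners at a median of 0.50. The box C/D partners of NOP58 were NOP56 (-0.18), FBL (-0.08) and SNU13 (0.06), against 0.55 for NOP58. ORMDL1 (0.67) stood opposite its paralogs ORMDL2 (-0.51) and ORMDL3 (-0.36), and UBE2E3 (0.99) opposite UBE2E1 (-0.15). The other listed paralog of UBE2E3, UBE2E2, was above 0 at 0.22. OSGEPL1 (0.40) had the paralog OSGEP at -0.55. With the local background subtracted, 24 of the 34 members were above the median of their partners, with a median difference of 0.36. Of the 112 partners, 52 changed sign there, among them UBE2E1 (3.30, above UBE2E3 at 2.27), PHF5A (0.95), ORMDL2 (0.01) and SF3B6 (-0.10). The members were chosen on this contrast and the partner list was written with earlier results known, so the gap between them is a description.

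**Figure D4:**
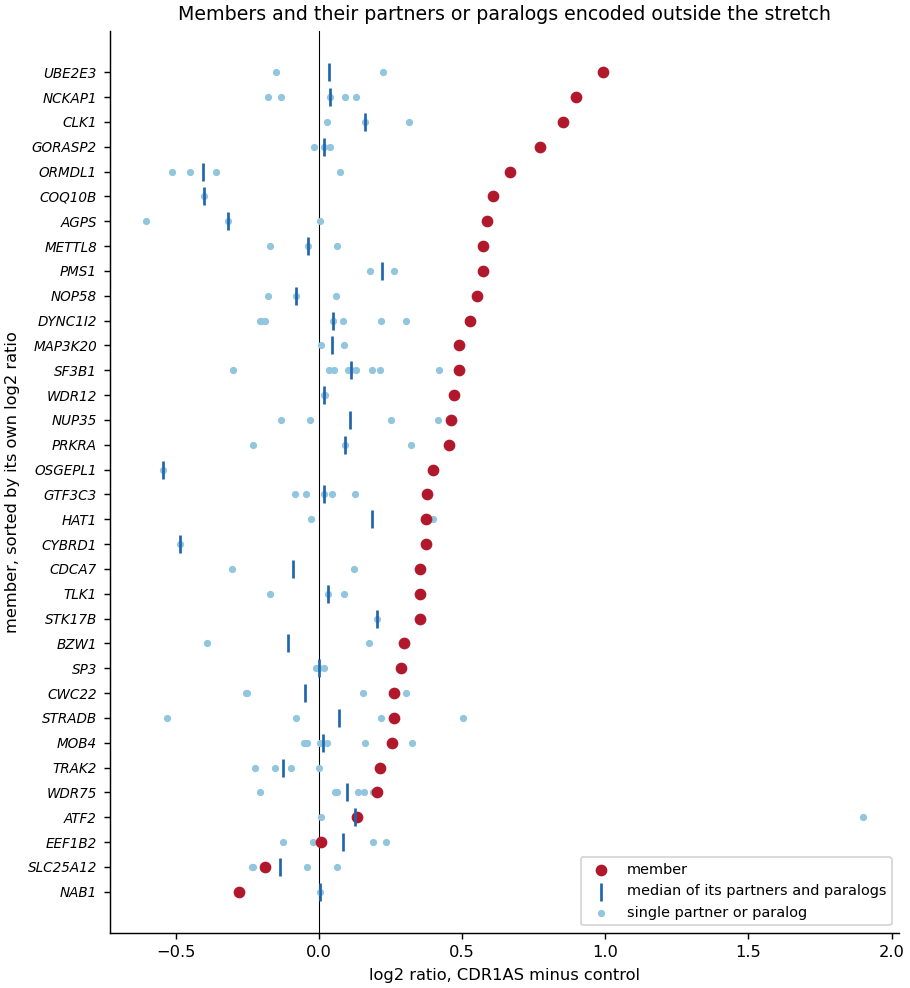
Log2 ratio (CDR1AS minus control) of 34 members (red), of their single partners and paralogs (light blue) and the median of those (blue bar), with members sorted by their own ratio. In 31 rows the red point lies right of the bar; the point far right in the row of ATF2 is JUN at 1.90.

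The choice of background correction changed these ratios more than any other choice in the same intensities. The local background column rose with the brightness of the spot itself (Pearson's r across 24459 probes 0.94 on the CDR1AS array and 0.98 on the control array, on the log scale), and at the members' spots it had a median of 50.8% of the spot on the CDR1AS array and 75.6% on the control array. Subtracting it turned 17 members from above 0 to below 0, 14 of them bright, and turned 0 members the other way. The lowest of these 17 were MOB4 (-0.89), SF3B1 (-0.55), COQ10B (-0.51), OLA1 (-0.49), WDR75 (-0.48) and CYP20A1 (-0.48). Next came NIF3L1 (-0.45), ZC3H15 (-0.43), HAT1 (-0.42), PRKRA (-0.29) and INPP1 (-0.28). The other 6, TRAK2, CWC22, ITPRID2, OSGEPL1, PGAP1 and STK17B, lay between -0.06 and -0.01. Of the 13 members at least 1.5-fold higher, 5 were still so after the subtraction: UBE2E3, HIBCH, CHN1, CLK1 and GORASP2. Another 5 were above 0 but under 1.5-fold, AGPS (0.55), ORMDL1 (0.35), DLX1 (0.20), NCKAP1 (0.16) and SPATS2L (0.12). Of the members that kept their sign, NOP58 had a log2 ratio of 4.81 on that scale and UBE2E3 2.27. At NOP58 the local background on the control array, 2322, exceeded the spot itself, 2172. On the CDR1AS array it was 442 under a spot of 3381. For UBE2E3 and HIBCH the control array's local background, 476 and 464, nearly equalled the spots, 498 and 489. Such ratios rest on a control value near 0 before the offset.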

How the data were processed

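Total RNA from 2 SW620 samples was hybridised to 1 array each. Per the file headers, the deposited intensity is a spot's median pixel value in the red channel. Neither the labels nor the headers name the genome build of the probe design. The authors' deposited value table holds a linear signal: each column was linear in the matching intensity (largest residual 0.0559 on the CDR1AS array and 0.0512 on the control array) and was 0 at the blank level, with a median of 25.

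Of the gene probes, 24459 were kept. Values were corrected with normexp (offset 50, no local background), quantile-normalized and put on the log2 scale with limma 3.58.1 in R 4.3.3; the tables were made in Python 3.11.15. The brightest probe stood for a gene, and a gene was measured if above the mean of the blanks plus 2 SD on at least 1 array. Gene order and promoters came from RefSeq GRCh38.p14, matched by gene identifier for 16665 of 16685 measured genes. With 1 array per group no test was run; steps were tested on simulated data. Members, lists, windows and the rule for named genes (all members, the 5 highest and 5 lowest other genes of the stretch, the 10 nearest on each side, listed partners) were chosen with earlier results of these data known. The 10 nearest bright genes, the other chromosomes' windows and the promoters shown were picked after the values were seen. The 8 alternatives are given under the dependence on processing.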

Additional observations from a re-analysis of the deposited data

How the results depend on the processing

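The members' median log2 ratio of 0.40 stayed between 0.38 and 0.49 with an offset of 16, scaling to a common median, cyclic loess, no filter on dim probes, the stricter filter and the median over a gene's probes. It was 0.61 in the authors' deposited table and 0.14 after subtraction of the local background, where 31 of 51 members were above 0 in place of 48. The deposited table placed 27 members at or past 1.5-fold in place of 13. Members at or past 2-fold numbered 1 in the main setting, 3 with an offset of 16, 2 with scaling to a common median and with cyclic loess, 4 in the deposited table and 9 after subtraction of the local background. The share of all genes past 2-fold was taken in the main setting alone, at 0.755%. Whether the other 2-fold counts exceed the share of all genes in their own setting was therefore not tested. The other genes of the stretch had a median of 0.32 in the deposited table and 0.29 with the stricter filter, which leaves the 34 bright ones, against 0.07. Subtraction of the local background turned 17 members below 0, among them 3 of the 13 past 1.5-fold, ITPRID2 (-0.047), ZC3H15 (-0.43) and COQ10B (-0.51), and left 5 of the 13 past 1.5-fold. Beside these 3 it moved 37 member ratios by more than 0.16, the combined spread of the repeated spots of 1 positive control on both arrays. That control had SDs of 0.13 on the CDR1AS array and 0.10 on the control array. A second positive control, not used for this limit, spread wider, with SDs of 0.24 and 0.14. The causes of these moves were not tested. The deposited table holds no offset and was scaled linearly in place of quantile normalization, and these 2 differences were not separated. The medians of chromosome 2 outside the stretch and of the partners, which also lie outside it, stayed within 0.10 of 0 in every alternative run. Every replicate-based alternative is absent because each group is 1 array. No paired analysis was possible because each group held 1 array and no test was run. Signal over background limits the dim members: 12 of 51 read under 2 times the limit on at least 1 array.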
